A study of Mus musculus with 30 samples.

Results

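Adipose tissue macrophages (ATMs) and bone marrow (BM) of the same treatment group were compared by RNA sequencing, in recipients given an antibody to IL-17A together with beinaglutide, an agonist of the GLP-1 receptor (Combo). The members were the 3 Combo libraries of visceral ATMs and the 3 Combo libraries of BM, chosen by their labels, 6 of 30 libraries in all. Recipients were leptin-deficient Ob/Ob mice on a C57BL/6J background, lethally irradiated with 700 cGy and 400 cGy, that had received CD45.2+ BM cells of Shp2E76K/+;LysM-Cre+ mice with an equal number of Boy/J CD45.1+ competitor cells. From 8 weeks after transplantation they were given beinaglutide at 3 mg/kg s.c. and 200 µg of the antibody i.p. 3 times a week for 30 days. The other groups used here, also 3 libraries per tissue, were Ob/Ob recipients given vehicle (Vehicle) and lean wild-type recipients (WT), with the same transplant. Vehicle was given for 30 days, and the labels give no treatment or treatment period for WT. Genotype, drugs and dosing therefore cannot be told apart between Combo and WT. Recipients were 12 to 14 weeks old according to the labels, of both sexes. LysM-Cre acts in the myeloid lineage, so the active Shp2 allele is carried by part of the donor-derived cells, and neither tissue was sorted by CD45 allele, so mutant, competitor and any surviving host cells were sequenced together. BM was whole BM. ATMs were sorted as F4/80+ cells, so the gene of that antigen, Adgre1, is a check and not a finding. Tissue, sort and library of origin cannot be told apart in this comparison, and in bulk RNA more cells of a type and more RNA per cell cannot be told apart either.

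BM makes blood cells. Neutrophil precursors fill their granules in a fixed order, primary granules with myeloperoxidase and elastase first and secondary granules with lactoferrin and cathelicidin later, and red-cell precursors are driven by GATA1 and KLF1. Macrophages of fat clear dying cells, buffer lipid and iron and present antigen. Resident ones carry LYVE1, TIM4 and FOLR2, while lipid-associated macrophages, which gather around dying adipocytes in obesity, carry TREM2, lipoprotein lipase and GPNMB and hold enlarged lysosomes.

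Levels are given as CPM, counts relative to the TMM-scaled library total times 1000000, from the counts deposited by the authors. The 6 libraries held between 31854058 and 36909493 counts on genes, and the 10 most counted genes took 7.31% to 7.40% of them in ATMs and 14.9% to 15% in BM. Of 13076 genes listed in both tables, 3254 were called higher in ATMs (24.9%) and 2959 lower (22.6%), at a false discovery rate below 0.05 with a log2 fold change beyond 1. The median log2 fold change over these genes was -0.04, and 0.15 with upper-quartile scaling or 0.18 with library totals alone, so that differences are read against that shift. All 3 ATM libraries were above all 3 BM libraries for 5123 genes (39.2%) and below them for 5587 (42.7%). The tissues overlapped for only 2366 genes. Where lack of overlap is given below, it therefore describes a gene and does not set it apart. Replicates differed by a biological coefficient of variation of 21.9% in ATMs and 2.28% in BM. The p-values rest on a spread fitted for each gene over all 30 libraries, which the tissues and treatments share. Over all treatment groups the coefficient was 23.1% in ATMs and 3.5% in BM, so that shared spread is not that of either tissue alone. They measure only the spread between libraries. Genes called higher in ATMs had a median exon length of 4019 bases and those called lower 4936, and 97.4% and 96.7% of them were protein-coding.

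Macrophage identity was tested first. Adgre1 stood at 412, 407 and 400.4 CPM in the 3 ATM libraries and 23.9, 22.4 and 21.3 in BM. The groups did not overlap, with a log2 fold change (ATMs over BM, here and throughout) of 4.17 ± 0.11 (SE, adjusted p = 2.25e-22). Of the 16 genes of a general macrophage list, 7 were called higher in ATMs, 2 lower and 7 not called, with a median of 0.51. Higher in ATMs were Cd68, a lysosomal membrane protein, with 828, 881 and 873 CPM against 62.7, 66 and 62.1, Csf1r, the receptor for the macrophage growth factor CSF1, with 684 ± 10.1 CPM in ATMs and 114 ± 0.738 in BM, and Mertk, a receptor for dying cells, with 33.1 ± 8.68 CPM in ATMs and 2.72 ± 0.259 in BM. Their log2 fold changes were 3.76 ± 0.05, 2.58 ± 0.06 and 3.61 ± 0.17. Itgam, the CD11b integrin chain that neutrophils also carry, and Cd33, a lectin of myeloid precursors, were lower, Itgam with 440.5 ± 14.0 CPM in ATMs and 1691 ± 11.6 in BM.

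Several myeloid genes were at like levels in both tissues. Lyz2, the lysozyme gene whose locus drives LysM-Cre, had 7301, 7231 and 7167 CPM in ATMs and 6259, 6203 and 6160.3 in BM. The ATM libraries were all above those of BM, but the log2 fold change was 0.22 ± 0.03, inside the range of -1 to 1. The 95% interval lay inside that range for 4643 genes (35.5%) and for 6 of the 16 macrophage genes, Lyz2, Fcgr3, Cd84, Sirpa, Tyrobp and Fcer1g. The share among macrophage genes was close to that over all genes tested, so likeness was not particular to them. Tyrobp, the DAP12 adaptor, had an interval of -0.27 to -0.10 and Fcer1g, the Fc receptor gamma chain, one of 0.08 to 0.23. Ptprc, the pan-leukocyte antigen CD45, was at 594 ± 47.7 CPM in ATMs and 695 ± 7.61 in BM, with an interval of -0.35 to -0.10, while Ptpn11, which encodes SHP2, was called lower in ATMs with 67.5, 64.1 and 61.4 CPM against 154, 153 and 155 and a log2 fold change of -1.26 ± 0.13 (SE, adjusted p = 2.43e-09). Reads of the mutant and normal alleles were counted together.

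**Figure D1:**
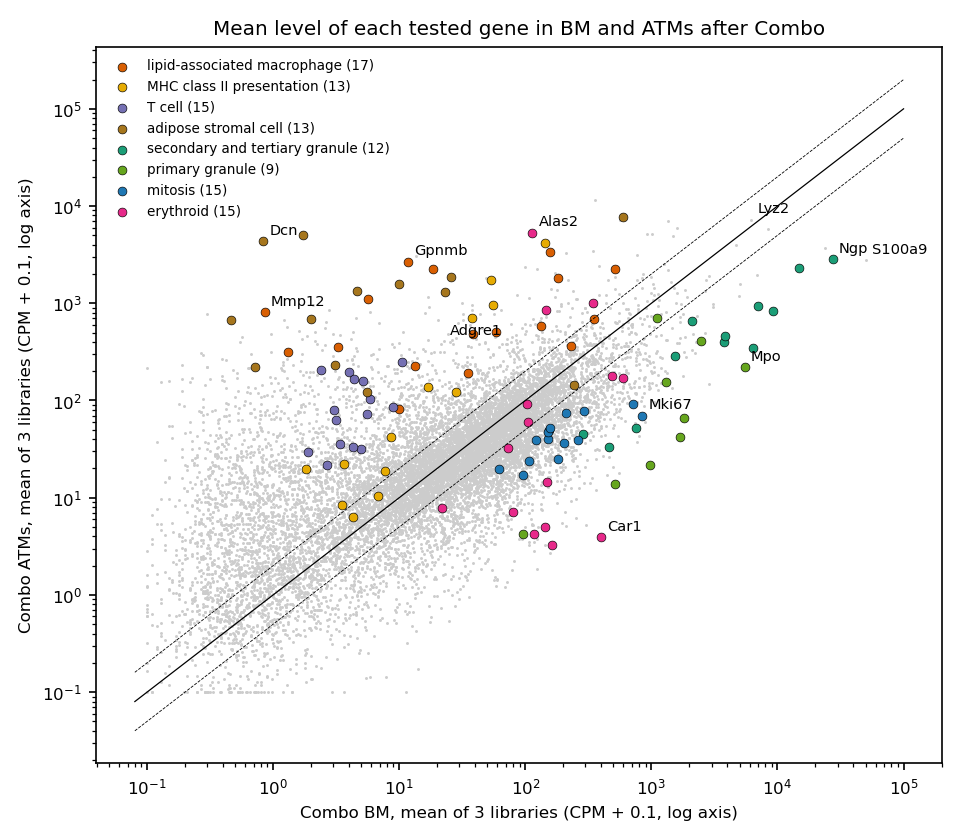
Mean CPM of each of 13076 genes in 3 Combo BM libraries (x axis) and 3 Combo ATM libraries (y axis), both log axes with 0.1 added. Coloured points are members of 8 gene lists, the solid line marks equal levels and dashed lines a factor of 2. Lipid-associated, stromal and T cell genes lie above the lines, and granule and mitosis genes below.

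The lipid-associated macrophage list set ATMs apart from BM. Of 17 members tested, 15 were called higher in ATMs, 0 lower and 2 not called (Cd9 and Cd63), with a median log2 fold change of 3.63. Gpnmb, a transmembrane glycoprotein of the lysosome, had 2689, 2620.0 and 2730.3 CPM in the ATM libraries and 12.2, 11.0 and 11.6 in those of BM. Lpl, which releases fatty acids from lipoproteins, had 2202, 2251 and 2225 against 19.2, 18 and 17.7. Both genes were more than a factor of 100 apart with no overlap, and their log2 fold changes were 7.85 ± 0.05 (SE, adjusted p = 3.03e-36) and 6.93 ± 0.07 (SE, adjusted p = 1.80e-31). Trem2, the lipid receptor that gives the state its best-known marker, had 227, 225 and 228 CPM against 13.1, 12.8 and 13.7, a log2 fold change of 4.10 ± 0.09 (SE, adjusted p = 8.27e-25). Mmp12, macrophage elastase, was close to absent from BM with 0.904, 0.448 and 0.917 CPM and stood at 805, 792 and 814 in ATMs, a difference of 10.04 ± 0.11 (SE, adjusted p = 5.50e-31) on the log2 scale.

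Other members of the list spanned a wide range of differences. Apoe, which carries cholesterol out of cells, had 3346 ± 68.4 CPM in ATMs and 156 ± 4.91 in BM, Lipa, the acid lipase of the lysosome, 504 ± 11.0 CPM in ATMs and 58.6 ± 2.40 in BM, and Plin2, the coat protein of lipid droplets, 1834 ± 36.3 CPM in ATMs and 182 ± 3.19 in BM. Atp6v0d2, a subunit of the proton pump of lysosomes, and Ctsk, cathepsin K, reached 317 and 358 CPM in ATMs and 1.20 and 3.18 in BM. Fabp4, which adipocytes and endothelium also express, was at 1114 ± 9.05 CPM in ATMs and 5.56 ± 0.931 in BM. Cd9, a tetraspanin, was at 363 ± 9.39 CPM in ATMs and 232 ± 2.93 in BM, with an interval of 0.56 to 0.73. Dcstamp was listed for ATMs alone, at 22.9, 29.5 and 20.7 CPM, and its BM level was not analysed here.

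Resident macrophage genes were higher in ATMs as well. All but F13a1 of 14 members tested were called higher, with a median of 3.56. Folr2, a folate receptor, had 152, 152 and 154 CPM in ATMs and 0.759, 1.02 and 1.21 in BM, and Mrc1, the mannose receptor CD206, 119.7, 103 and 110.2 against 16.9, 18.3 and 20.1. The libraries of the tissues did not overlap, with log2 fold changes of 7.26 ± 0.11 and 2.59 ± 0.19. Timd4 and Lyve1, the markers of long-lived resident cells, were detected in every ATM library, Timd4 with 3.18, 6.77 and 3.19 CPM against 0.438, 0.149 and 0.0296 in BM and Lyve1 with 14.5, 24.7 and 24.6 against 1.28, 1.67 and 1.51.

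Clearance genes followed. Of 14 complement and efferocytosis genes, 11 were called higher in ATMs, none lower, and C5ar1, Cfp and Scarb1 were not called. C1qb, a chain of the complement starter C1q that macrophages make, had 934, 907 and 927 CPM in ATMs and 17.4, 17.1 and 16.8 in BM, and C3ar1, the receptor of the anaphylatoxin C3a, 270.5, 259.7 and 278 against 1.25, 1.02 and 1.30. The tissues did not overlap, and the log2 fold changes were 5.75 ± 0.05 and 7.82 ± 0.12. C3, on which the complement pathways converge, was at 4900.3 ± 34.3 CPM in ATMs and 1488 ± 10.3 in BM.

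Lysosomal genes were in part higher in ATMs. Of 24 genes, 15 were called higher in ATMs, 0 lower and 9 not called, with a median of 1.35. Ctsb, cathepsin B, had 7202, 6922 and 7300.2 CPM in ATMs and 567, 558 and 564 in BM, and Ctsl, cathepsin L, 1782, 1786 and 1834 against 49.0, 46.9 and 49.98. These proteases were far above BM in all ATM libraries, by 3.67 ± 0.03 and 5.21 ± 0.03 on the log2 scale. Ctsd and Lamp1, the aspartic protease and the main membrane glycoprotein, were 2.5 ± 0.02 and 1.49 ± 0.03 higher. Neu1 and Man2b1, which cut sugar chains, and the cholesterol exporter Npc1 were at like levels in both tissues, with log2 fold changes of -0.30, -0.17 and -0.11 and intervals inside -1 to 1.

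The proximal promoters of lysosomal genes often hold the palindrome CACGTG, the core of the element that TFEB, TFE3 and MITF are known to bind. In the 250 bases before the RefSeq start (GRCm38.p6, the first window listed for a gene), 6 of 19 lysosomal genes with a window held CACGTG, 31.6%, as did 8.36% of 9968 tested genes with a window and 6.05% of all 27025 promoters. Among the genes called higher in ATMs the share was 7.16%, among those called lower 8.14% and among those not called 8.98%. None of 12 lipid-associated genes with a window held it. The 6 were Ctsd, Ctsl, Gla, Glb1, Lamp1 and Mcoln1, all of them called higher in ATMs, and the other 13 lysosomal genes with a window hold no match in these bases. As 15 of all 24 lysosomal genes were called higher, the call was not limited to these 6. A relation between match and call was not tested. Matches to TGACTCA, the AP-1 site, were also searched for, and none lies in the windows shown, while 3 of 19 lysosomal genes (15.8%) and 3.17% of the tested genes hold one. A match is a description and not a bound site. The windows of 4 of them are shown because they carry more than 1 match each. They run 5′ to 3′ on the strand of the gene and end at its start, with matches to CACGTG, and to AGATAA on either strand, in capitals.
Ctsd (chr7:142387828-142388077, minus strand): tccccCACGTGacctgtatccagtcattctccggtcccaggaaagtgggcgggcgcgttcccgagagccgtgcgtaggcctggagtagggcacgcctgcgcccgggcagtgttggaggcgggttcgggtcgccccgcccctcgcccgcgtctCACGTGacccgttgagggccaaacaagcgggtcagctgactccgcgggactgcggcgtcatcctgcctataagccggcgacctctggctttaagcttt
Gla (chrX:134601006-134601255, minus strand): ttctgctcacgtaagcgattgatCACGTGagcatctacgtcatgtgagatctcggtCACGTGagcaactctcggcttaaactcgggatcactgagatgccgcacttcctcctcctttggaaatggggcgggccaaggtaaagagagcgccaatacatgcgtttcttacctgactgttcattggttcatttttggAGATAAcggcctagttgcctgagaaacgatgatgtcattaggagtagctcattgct
Lamp1 (chr8:13158911-13159160, plus strand): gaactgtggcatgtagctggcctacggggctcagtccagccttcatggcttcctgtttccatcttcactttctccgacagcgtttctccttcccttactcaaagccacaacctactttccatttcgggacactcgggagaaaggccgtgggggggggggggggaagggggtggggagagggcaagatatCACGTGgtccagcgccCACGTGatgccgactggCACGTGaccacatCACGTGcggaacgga
Mcoln1 (chr8:3500269-3500518, plus strand): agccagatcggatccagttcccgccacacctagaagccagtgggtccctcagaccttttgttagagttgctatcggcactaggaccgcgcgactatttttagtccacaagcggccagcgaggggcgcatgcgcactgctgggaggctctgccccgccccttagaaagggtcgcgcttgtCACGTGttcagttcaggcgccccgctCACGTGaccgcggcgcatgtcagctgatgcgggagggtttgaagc
In Lamp1 the matches start 61, 45, 28 and 15 bases before the start of transcription, in Mcoln1 71 and 45, in Ctsd 245 and 98 and in Gla 227 and 194. Mcoln1, a calcium channel of the lysosome, had 49.4, 47.2 and 45.6 CPM in ATMs and 16.1, 18 and 16.4 in BM, and Gla, alpha-galactosidase A, 145, 134 and 128 against 17.7, 18.4 and 18.1, with log2 fold changes of 1.5 ± 0.09 and 2.91 ± 0.06. Of the factors themselves, Mitf was called higher in ATMs with 26.2 ± 1.56 CPM in ATMs and 4.33 ± 0.295 in BM, and Tfeb was not called with 30.3 ± 3.11 CPM in ATMs and 47.6 ± 0.993 in BM and an interval of -0.88 to -0.43.

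Lipid and iron handling differed member by member. Of 20 genes of lipid uptake, storage and efflux, 9 were called higher in ATMs, 3 lower and 8 not called. Cd36, a fatty acid translocase, had 3090.2, 3146 and 3002 CPM in ATMs and 13.8, 13.4 and 13.3 in BM, the widest gap of the list at 7.83 ± 0.07 on the log2 scale. The cholesterol exporter Abca1, the sterol receptor Nr1h3 and Pparg, which drives fatty acid storage, were higher by 4.11 ± 0.13, 4.46 ± 0.18 and 4.58 ± 0.18. The acyl-CoA ligase Acsl1 and the receptor Ppard were lower, with log2 fold changes of -1.90 ± 0.08 and -3.11 ± 0.21. Apoc2, with 1.5 ± 0.297 CPM in ATMs and 3.03 ± 0.296 in BM, passed the limit narrowly at -1.01 ± 0.40 and was no longer called with DESeq2 size factors or without replicate 2 of either tissue.

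For iron, 8 of 12 genes were called higher in ATMs and 2 lower. The ferritin chains that store iron were higher, Fth1 with 5209, 5139.5 and 5176 CPM against 1036, 1021 and 986 and Ftl1 with 7062, 6913 and 7169 against 1351, 1356 and 1391. Of the exons of Ftl1, 34.6% of bases overlap another gene, and reads there counted for each. Hmox1, which opens heme, was 1.85 ± 0.05 higher. The transferrin receptor Tfrc, by which red-cell precursors import iron, had 45.8 ± 3.58 CPM in ATMs and 274 ± 10.4 in BM, and the exporter Slc40a1 54.7 ± 4.18 CPM in ATMs and 202 ± 9.07 in BM, both called lower.

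Antigen presentation by MHC class II was far higher in ATMs. Of 13 genes, 11 were called higher and H2-Oa and H2-Ob were not called, with a median of 2.64. H2-Ab1, a class II beta chain, had 1747, 1673 and 1730.2 CPM in ATMs and 57.2, 50.1 and 51.7 in BM, and Cd74, the invariant chain, 4177, 4151 and 4102 against 140.0, 140.3 and 147. Both were more than 20 times as high in every ATM library, with log2 fold changes of 5.02 ± 0.05 (SE, adjusted p = 9.24e-33) and 4.86 ± 0.05 (SE, adjusted p = 2.14e-32). Ciita, the master activator of class II genes, was higher by 2.64 ± 0.18, and the costimulatory genes Cd80, Cd86 and Cd40 by 1.31 ± 0.17, 2.30 ± 0.13 and 3.51 ± 0.19.

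Chemokines were higher in ATMs without exception. All 18 tested were called, with a median of 5.78. Cxcl1, a neutrophil attractant, had 228, 218 and 199 CPM in ATMs and no read in any BM library, at least 2428-fold higher against a floor of 3 counts per library. Ccl7 had 149.5, 166 and 147 CPM in ATMs and 0 to 3 counts in the BM libraries, a ratio of 5220.3 with a counting interval of 1786 to 25316. Ccl2, which draws monocytes, had 207, 214 and 186 CPM against 1.31, 1.85 and 1.39, and Cxcl16, the ligand of CXCR6, 104, 118 and 126 against 0.904, 1.49 and 1.04. The lowest ATM library was above the highest of BM for each of these, as it was for 39.2% of all genes tested. Ccl6 and Ccl9, which myeloid cells of BM also express, had the smallest differences, at 2.47 ± 0.05 and 2.46 ± 0.05. Ccl11, Ccl17 and Ccl24 were listed for ATMs alone, Ccl11 at 208, 209.7 and 182 CPM.

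Chemokine receptors went both ways. Of 13 chemokine receptors, 8 were called higher in ATMs, 3 lower, and Ccr2 and Ccr3 were not called. Lower were Cxcr2, which releases neutrophils from BM, with 34.1, 40.8 and 36.2 CPM against 775, 773 and 772, Cxcr4, which holds them there, with 84.6 ± 3.31 CPM in ATMs and 332 ± 4.07 in BM, and Ccr1. Cxcr6, a receptor of T and NK cells, was higher by 6.72 ± 0.21. Ccr2, the monocyte receptor for CCL2, stood at 161, 136 and 155 CPM in ATMs and 172, 173 and 166 in BM, with an interval of -0.36 to 0.01.

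Among genes of the treated pathways, Il17a had 3.60, 2.57 and 2.11 CPM in ATMs and no read in BM, at least 31.2-fold higher. The receptor chain Il17ra was lower in ATMs with 125, 103 and 132 CPM against 405, 403 and 409, a log2 fold change of -1.76 ± 0.07 (SE, adjusted p = 6.12e-19). The chains Il17rc, Il17rd and Il17re were listed for ATMs alone, at 15.7, 4.01 and 11.7 CPM. Nfkbiz, which IL-17 and other signals induce, was 3.62 ± 0.05 higher in ATMs, and Dpp4, the protease that cuts GLP-1, 2.56 ± 0.19. Glp1r, the receptor of beinaglutide, was in neither table and not analysed here. Of 9 members tested, 6 were called higher and 1 lower.

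Cytokines were mostly higher in ATMs, with 10 of 13 called higher. Arg1, the arginase of alternatively activated macrophages, had 225, 231 and 202 CPM in ATMs and 0.263, 0.149 and 0.178 in BM, and Il1b 344, 369.6 and 350.0 against 37.2, 36.0 and 37.0. Neither pair overlapped, with log2 fold changes of 10.09 ± 0.23 (SE, adjusted p = 3.52e-24) and 3.27 ± 0.06 (SE, adjusted p = 1.07e-25). Il10, Il6 and Ifng, made by macrophages, stroma and lymphocytes, reached 15.7, 34.3 and 60.2 CPM in ATMs and less than 1 CPM in BM. Tgfb1 was lower in ATMs, with a log2 fold change of -1.57 ± 0.08, and Osm and Nos2 were not called at -0.25 ± 0.08 and 0.63 ± 0.27. Of 15 interferon-stimulated genes 11 were higher and Oas2 and Oas3 lower, Oas3 no longer so without replicate 2 of either tissue, with Ifit1 at 127 ± 4.99 CPM in ATMs and 1.94 ± 0.170 in BM.

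**Figure D2:**
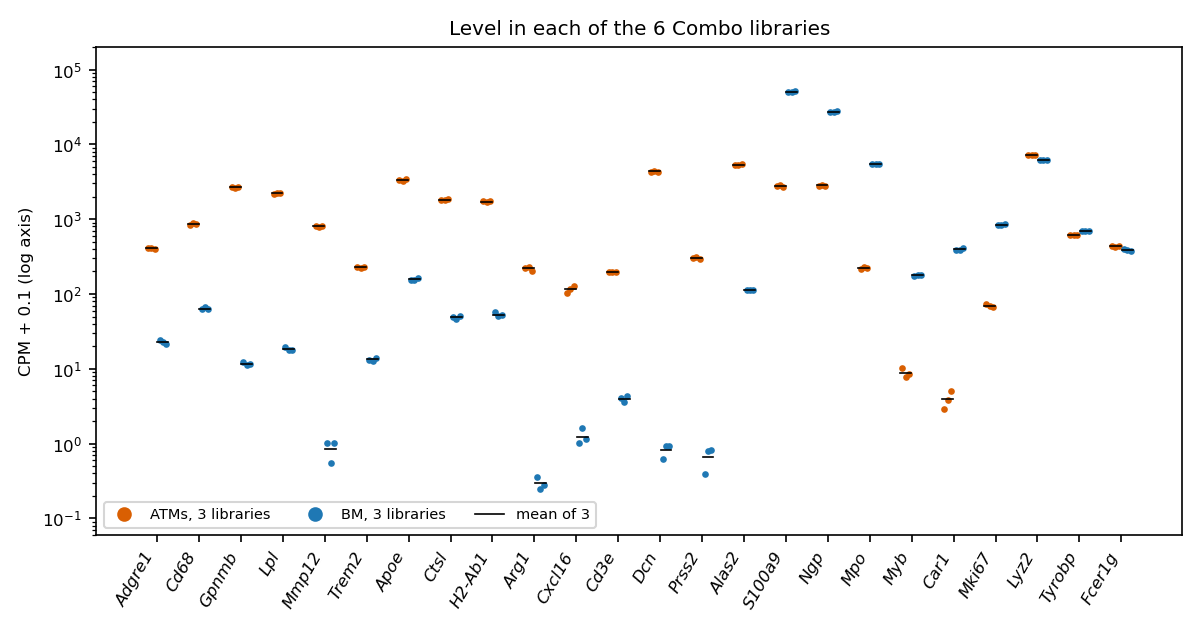
CPM of 24 genes in each of the 3 Combo ATM libraries (orange) and 3 Combo BM libraries (blue), on a log axis with 0.1 added, and short lines mark the means. Replicates lie close together, the tissues are separate for each gene shown, as for most genes tested, and Lyz2, Tyrobp and Fcer1g differ by less than a factor of 2.

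The granule programs of neutrophils were the clearest feature of BM. Of 9 primary granule genes, 0 were higher in ATMs, 8 lower and Calr not called, with a median of -4.63, and all 12 genes of secondary and tertiary granules were lower, with a median of -3.14. Mpo, myeloperoxidase, had 5428, 5484 and 5543 CPM in BM and 213, 228 and 223 in ATMs, and Elane, neutrophil elastase, 1791, 1809 and 1810.0 against 62.8, 67.0 and 69.6. BM was above ATMs in every library, with log2 fold changes of -4.63 ± 0.14 (SE, adjusted p = 6.03e-21) and -4.76 ± 0.09 (SE, adjusted p = 8.17e-26). Ngp, neutrophilic granule protein, had 27234, 27193 and 27769 CPM in BM and 2806, 2857 and 2804 in ATMs, and Ltf, lactoferrin, 14755, 14777 and 14983 against 2334, 2321 and 2313. These later genes were nearer to each other between the tissues, with log2 fold changes of -3.28 ± 0.05 and -2.68 ± 0.05. Cybb, the oxidase chain that macrophages share, had the smallest difference of that list, -1.68 ± 0.04.

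Of 15 genes of mature neutrophils, 10 were lower in ATMs, Cxcl3 was higher, and Il1r2, Trem1, Clec4e and Clec4d were not called. S100a9, a calcium-binding alarmin, had 50178, 49376 and 51088 CPM in BM and 2776, 2819 and 2724 in ATMs, a log2 fold change of -4.18 ± 0.05 (SE, adjusted p = 1.66e-30). S100a8, its partner, had 25263, 24697 and 22065 against 3730.1, 3794 and 3646. Per kilobase of exon, S100a9, S100a8, Ngp, Camp and Lyz2 were the 5 highest genes of BM. The highest of ATMs were Lyz2, S100a8, S100a9, Ftl1 and B2m, with Ngp and Alas2 among the first 10. The members of the neutrophil list summed to 7688 to 7967 CPM in the F4/80+ libraries and 78576 to 80968 in BM, and the part of neutrophil RNA in the ATM values was not tested.

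Transcription factors were divided in the same way. Of 13 factors of the macrophage lineage, 9 were higher in ATMs, Spic and Tfec lower, Spic no longer so without replicate 1 of either tissue or BM replicate 3, and Tfeb and Nfatc1 not called. Bhlhe40, a factor of tissue macrophages, had 957, 947 and 968 CPM in ATMs and 38.8, 35.8 and 38.1 in BM. Of 15 granulocyte and progenitor factors, 11 were lower in ATMs, with a median of -2.81. Cebpe, which switches on secondary granule genes, had 294, 303 and 304 CPM in BM and 6.12, 4.17 and 5.15 in ATMs, and Myb, a factor of dividing progenitors, 176, 178 and 179 against 10.1, 7.71 and 8.46. Their log2 fold changes were -5.86 ± 0.15 (SE, adjusted p = 3.18e-23) and -4.34 ± 0.23 (SE, adjusted p = 8.15e-16). Meis1 and Mecom, which endothelium and stroma also express, were the 2 that were higher in ATMs, by 2.38 ± 0.23 and 3.81 ± 0.32.

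Division genes were lower in ATMs. All 15 mitosis genes were called lower, with a median of -1.91, and 13 of 15 replication genes, with a median of -1.51. Mki67, the proliferation antigen, had 846, 835 and 858 CPM in BM and 73.3, 68.7 and 67.1 in ATMs, a log2 fold change of -3.60 ± 0.11 (SE, adjusted p = 2.32e-21). The mitosis list still summed to 690.0 to 715 CPM in ATMs, against 3683 to 3723 in BM.

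Red-cell genes did not move as 1 group. Of 15 tested, 10 were lower in ATMs, 3 higher (Alas2, Fech and Aqp1), and 2 not called. Car1, a carbonic anhydrase of early red-cell precursors, had 391, 391 and 409 CPM in BM and 2.81, 3.70 and 4.98 in ATMs, and the factor Klf1 59.9, 59.9 and 54.7 against 0.848, 1.16 and 1.36. Alas2, the first enzyme of heme synthesis in red-cell precursors, went the other way, with 5341, 5249 and 5399.9 CPM in ATMs and 113, 114 and 113 in BM. No library of 1 tissue overlapped the other, and the log2 fold changes were -6.70 ± 0.20 (SE, adjusted p = 1.43e-21), -5.70 ± 0.19 (SE, adjusted p = 2.09e-20) and 5.55 ± 0.03 (SE, adjusted p = 2.14e-36). Fech, the last enzyme of that pathway, was 2.52 ± 0.04 higher. Of the exon bases of Alas2, 15.5% overlap another gene. Globin genes were in neither table and not analysed here. The window before the start of Alas2 is shown for its single AGATAA, the letters GATA1 is known to bind, read on the opposite strand 86 bases before the start. AGATAA on either strand was in 4 of 12 red-cell genes with a window, 33.3%, and in 6.03% of the tested genes. It was not particular to red-cell genes. In the other lists searched the share ran from 0 for resident macrophage, primary granule and replication genes to 27.3% (3 of 11) for secondary and tertiary granule genes. For mature neutrophil genes it was 18.8% (3 of 16).
Alas2 (chrX:150547167-150547416, plus strand): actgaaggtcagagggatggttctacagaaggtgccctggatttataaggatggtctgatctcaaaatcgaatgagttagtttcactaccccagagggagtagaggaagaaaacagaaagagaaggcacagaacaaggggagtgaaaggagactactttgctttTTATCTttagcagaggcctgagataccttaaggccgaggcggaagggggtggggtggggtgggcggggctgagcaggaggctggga
The 4 red-cell genes were Alas2, Epor, Rhd and a globin gene, of which Epor and Rhd were lower in ATMs, with log2 fold changes of -1.49 ± 0.22 and -3.51 ± 0.18.

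Genes of other blood lineages went both ways. Of the early B cell genes, 6 (Vpreb1, Vpreb2, Igll1, Rag1, Rag2 and Dntt) were listed for BM alone, Rag1 at 11.5, 10.8 and 9.53 CPM, and of 6 tested 2 were higher in ATMs, 2 lower and 2 not called, with a median of -0.22. The higher ones were Ebf1 and Il7r, which preadipocytes and T cells also express. Of 14 genes of mast cells, basophils and eosinophils, 4 were higher in ATMs and 6 lower. Granule genes of eosinophils and basophils, Prg2, Epx and Mcpt8, were lower in ATMs, with log2 fold changes of -4.96 ± 0.07, -4.48 ± 0.20 and -6.13 ± 0.18, while the mast cell proteases Tpsb2, Cma1 and Mcpt4 were at 266, 219.5 and 91.7 CPM in ATMs and under 1 CPM in BM. Platelet genes were divided too, with 4 of 14 higher and 5 lower. Over all genes tested 24.9% were higher and 22.6% lower. The platelet and early B cell counts, in lists this short, are near those shares and are not read as a lineage pattern. Itga2b and Gp1bb were lower in ATMs and Pf4 and Ppbp higher, Pf4 with 132, 127 and 133 CPM against 8.23, 9.26 and 8.35. Of 12 stem and progenitor genes 7 were higher in ATMs, including Ly6a (507 ± 17.3 CPM in ATMs and 10.6 ± 0.750 in BM) and Cd34 (229 ± 7.72 CPM in ATMs and 31.1 ± 0.305 in BM), which endothelium and stroma also carry, while Kit and Flt3 were lower, with log2 fold changes of -1.65 ± 0.10 and -1.88 ± 0.39.

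**Figure D3:**
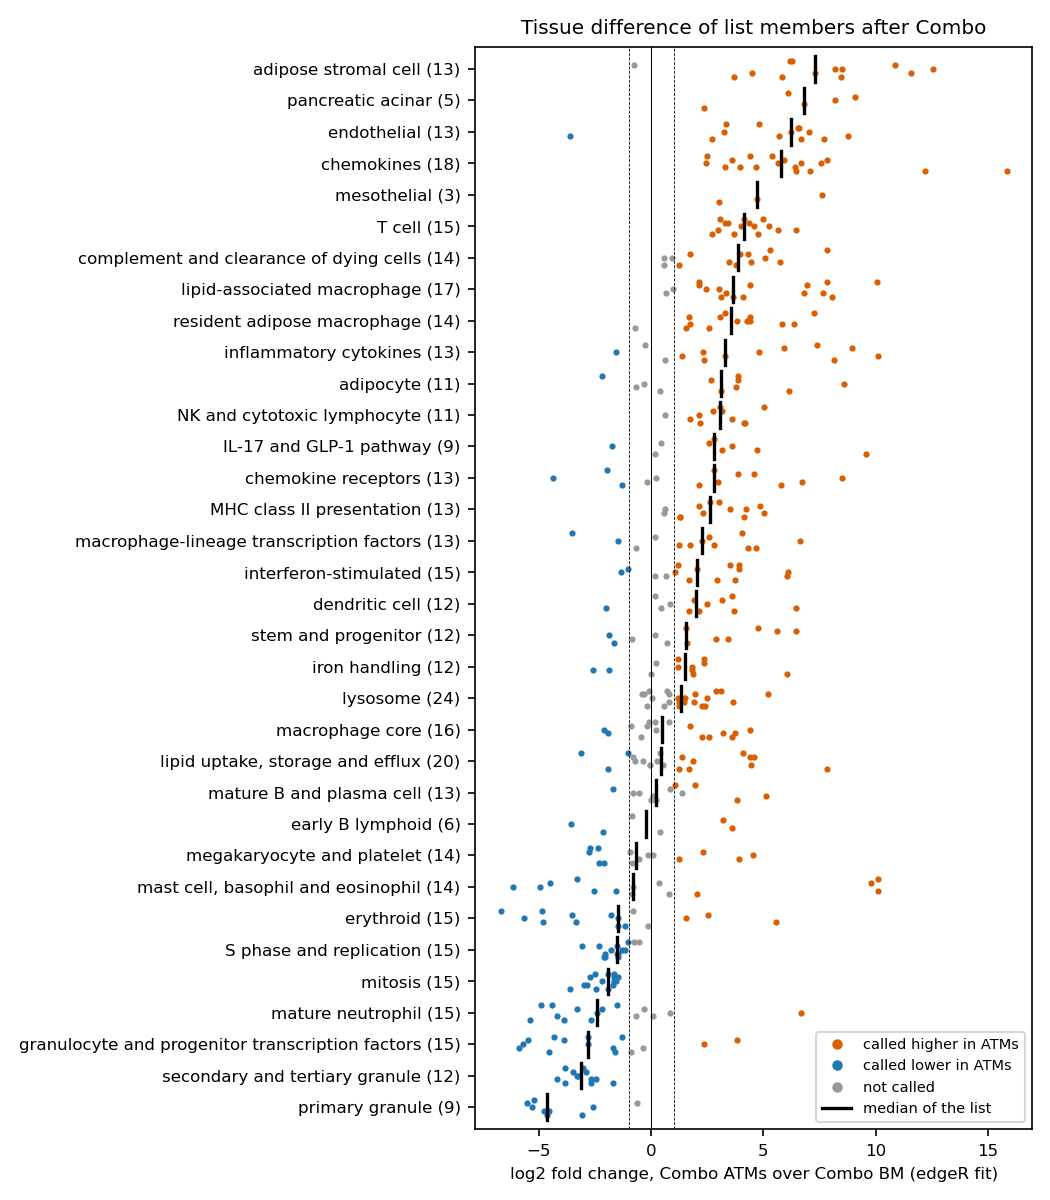
Log2 fold change of ATMs over BM after Combo for each tested member (points) of the gene lists with at least 3 tested genes, without the sex-linked list. Points are coloured by call, with the list median as a black line and dashed lines at -1 and 1. Lists are ordered by median, from 7.31 for adipose stromal cells to -4.63 for primary granules, and numbers of tested members stand in brackets.

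Genes of other cells of fat were prominent in the ATM libraries. Of 13 stromal genes, 12 were called higher than in BM and Pi16 not called, with the highest median of any list, 7.31. Dcn, the matrix proteoglycan decorin, had 4294, 4389 and 4335 CPM in ATMs and 0.525, 0.836 and 0.829 in BM, and Col3a1, a fibrillar collagen, 4980.4, 4903 and 5152 against 1.66, 1.55 and 1.63. The stromal list summed to 25200.4 to 25848 CPM in the ATM libraries and 913 to 926 in those of BM. Endothelial genes summed to 1057 to 1167 against 129 to 131 CPM, with 12 of 13 higher in ATMs and Erg, which BM progenitors also use, lower. T cell genes were higher in ATMs in 15 of 15 cases, with a median of 4.15 and sums of 1509.9 to 1558 and 66.9 to 71.7 CPM, Cd3e at 198, 194 and 197 CPM against 4.03, 3.49 and 4.2. NK and cytotoxic genes followed with 10 of 11 higher. Of 13 genes of mature B and plasma cells, 4 were higher in ATMs, near the share over all genes tested (24.9%). Of the rest, 1 was lower and 8 not called, and the list median was 0.21. The plasma cell genes Jchain, Mzb1 and Sdc1 were among the 4 higher ones, by 1.94 ± 0.04, 3.81 ± 0.16 and 5.11 ± 0.09. The B cell gene Cd79a was at a like level. Dendritic cell genes were higher in 8 of 12 cases and lower in 1.

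Adipocyte genes were detected as well. Adipoq, adiponectin, had 11.9, 15.9 and 16.0 CPM in ATMs and Lep, leptin, 35.3, 24.3 and 29.8, the latter listed for ATMs alone. The Ob allele carries a premature stop codon and is still transcribed. The adipocyte list had 7 of 11 tested genes higher in ATMs and Acaca lower. Of the mesothelial list, 7 genes were listed for ATMs alone, and the sum was 322 to 353 CPM. Pancreatic acinar genes summed to 1762 to 1792 CPM in ATMs, Prss2, a trypsinogen, with 298, 317 and 291 CPM against 0.292, 0.687 and 0.710 in BM and Cel, a lipase, with 195, 195 and 178 CPM in ATMs. Epididymal genes summed to 5.72 to 8.34 CPM. Xist and 4 Y-linked genes were detected in both tissues, of recipients of both sexes. Their sum was 53.1 to 55.6 CPM in the Combo ATM libraries and 113 to 115 in those of BM, so it hardly differed between replicates. Whether the libraries stand for separate animals was not tested. For every list of this paragraph and the one before, the part of such cells or their RNA in the other ATM values was not tested.

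The 12 genes with the largest positive log2 fold changes, among those called and not overlapping with a mean of at least 10 counts, were Cxcl1, Ccl7, matrix genes (Dcn, Col3a1, Lum, Ogn, Efemp1, Adamts1 and Cyr61), the apolipoprotein Apod, the hexosamine enzyme Gfpt2 and Tmem252. Lum, lumican, had 689, 681 and 657 CPM in ATMs and 0.292, 0.239 and 0.562 in BM, and Adamts1, a matrix protease, 289, 302 and 291 against 0.204, 0.269 and 0.0592. At the other end, 11 of 12 were without a read in any ATM library. Atp7b, a copper pump, had 11.1, 10.9 and 11.4 CPM in BM and 0 in ATMs, at least 134-fold lower. Myo18b, Prss50, Mfsd6l, Chrm1, Scml2, Drc7, 4921513I03Rik, Them7, Nags and Zfp819 were at least 7.94-fold to 42.5-fold lower, from BM levels of 0.659 to 3.53 CPM, and C530008M17Rik had 0.185, 0.0276 and 0 CPM in ATMs against 14.2, 13.6 and 13.9.

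Spread within ATMs depended on level. The median SD of log2 CPM over the 3 ATM libraries was 0.331 for genes at 1 to 10 CPM and 0.0267 above 1000 CPM, against 0.132 and 0.013 in BM. Bbs1 had 4.64, 5.41 and 0.0290 CPM in the ATM libraries, Polq 5.01, 0.166 and 0.376 and F8 2.91, 0 and 3.24, so single libraries held nearly all reads of these genes or nearly none. In BM the widest spread was that of Gm1943, with 1.05, 0.448 and 1.75 CPM. Values of single low genes in ATMs therefore carry wide intervals, such as -1.34 to 3.36 for Bbs1.

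The tissue difference after Combo was then set against that of Vehicle, to ask where it was unlike that of vehicle-treated obese recipients. Of the genes called higher in ATMs after Combo, 2347 of 3254 (72.1%) were also called higher in Vehicle, 74.2% of the 3165 called there (24.2% of genes tested). Of those lower, 2158 of 2959 (72.9%) were called lower in Vehicle, 64.9% of 3324 (25.4%). For 102 and 46 genes the call in Vehicle had the opposite direction. The interaction was called for 2110 genes in the positive direction (16.1%), toward ATMs, and 1496 in the negative (11.4%), so 58.5% were positive. That split depends on scaling, with 69.4% positive under upper-quartile scaling and 82.5% (3706 against 784) with library totals alone, which moved the median of all genes from 0.07 to 0.55.

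Lymphocyte genes were among those with positive interactions. All 15 T cell genes had a positive interaction called, with a median of 3.53, as had all 11 NK and cytotoxic genes, with 4.13. NK and cytotoxic genes summed to 497 to 515 CPM in Vehicle ATMs and 782 to 789 in Combo ATMs. In BM they summed to 551 to 562 CPM in Vehicle and 181 to 184 after Combo, so both tissues differed. Cd3e had 24.8, 20.1 and 27.4 CPM in Vehicle ATMs and 6.42, 7.84 and 8.20 in Vehicle BM, so the gap of 1.69 in Vehicle was 5.65 after Combo, a difference of 3.96 ± 0.16 (adjusted p = 1.24e-17). T cell genes summed to 228 to 239 CPM in Vehicle ATMs and 123 to 126 in Vehicle BM, against 1510 to 1558 and 66.9 to 71.7 after Combo. MHC class II genes also had positive interactions, in 12 of 13 cases. H2-Ab1 had 479, 465 and 479 CPM in Vehicle ATMs and 220.2, 228 and 232 in Vehicle BM, so the Combo ATM libraries lay above those of Vehicle and the Combo BM libraries below, and the gap was wider by 3.95 ± 0.06.

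Macrophage lists were called in part. Of 14 resident genes 12 had a positive and 2 a negative interaction, and of 16 core genes 9 and 1, with 6 not called. Of 17 lipid-associated genes 8 were positive, 2 negative (Cd63 and Fabp4) and 7 not called, and of 24 lysosomal genes 11 were positive, none negative and 13 not called. Stab1, a scavenger receptor, stood at 10.4, 22.8 and 17.7 CPM in Vehicle ATMs and 87.9, 104 and 85.2 after Combo, while Lyve1 and Cbr2 had negative interactions of -1.54 ± 0.33 and -1.93 ± 0.27. Trem2 had 57.4, 46.7 and 41.1 CPM in Vehicle ATMs and 2.49, 1.83 and 2.21 in Vehicle BM, both below Combo, and its interaction of -0.38 ± 0.14 was not called. Arg1 was at 56.6, 42.8 and 58.7 CPM in Vehicle ATMs and 67.6, 70.2 and 67.9 in Vehicle BM, where Combo BM was close to 0, an interaction of 10.47 ± 0.27. Il1b had 525, 478 and 539 CPM in Vehicle ATMs and 16.6, 14.6 and 15.2 in Vehicle BM, and its interaction was negative at -1.78 ± 0.09. Tnf and Ptgs2 were negative too, at -2.47 ± 0.12 and -2.75 ± 0.22. Over the 13 cytokine genes tested, 5 interactions were positive, 4 negative and 4 not called, with a median of -0.08.

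Positive interactions were called for all 15 mitosis genes, with a median of 3.19. Mki67 had 3.78, 8.25 and 5.18 CPM in Vehicle ATMs and 588, 619 and 622 in Vehicle BM, so the gap of -6.74 in Vehicle was -3.60 after Combo. The sum of the list in ATMs was 60.6 to 82.1 CPM in Vehicle, below every Combo ATM library. Mature neutrophil genes had negative interactions for 11 of 15 and a positive one for 1, and a sum of 18454 to 19843 CPM in Vehicle ATMs. Primary granule genes did not follow, with 6 of 9 positive. The count of negative mature neutrophil genes depends on scaling. It was 8 with upper-quartile scaling and 4 with library totals alone, where 10 were not called. Endothelial genes were negative in 7 of 13 cases and positive in 1, and stromal genes positive in 4 of 13 with the rest not called. The endothelial sum was 5318 to 5453 CPM in Vehicle ATMs. Interferon-stimulated genes summed to 27730.4 to 28503 CPM in Vehicle ATMs and 7012 to 7032 in Vehicle BM, against 1060.0 to 1077 and 369.5 to 373 after Combo, and 6 of 15 had a positive and 1 a negative interaction. The part of these shifts in the macrophage values was not tested.

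**Figure D4:**
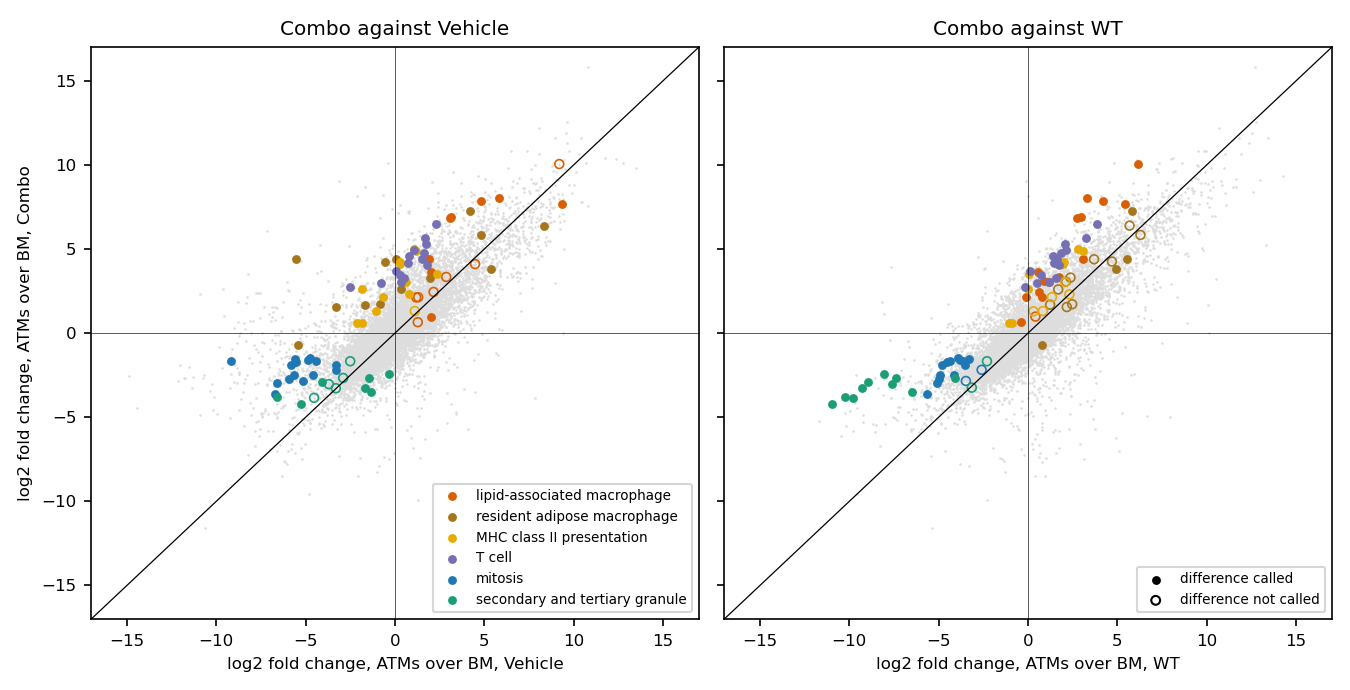
Log2 fold change of ATMs over BM in Vehicle (left, x axis) or WT (right, x axis) and after Combo (y axis) for all tested genes (grey) and 6 lists (colours), filled where the difference was called. Most T cell, MHC class II and mitosis members lie above the line of equality in both panels, as do most granule genes against WT.

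Against lean WT recipients, 2552 of the 3254 genes higher in Combo ATMs (78.4%) were also called higher in WT, 74.4% of the 3428 called there (26.2% of genes tested). Of those lower, 2152 of 2959 (72.7%) were called lower in WT, 70.0% of 3074 (23.5%). The opposite direction was called for 71 and 68. The interaction was called for 1665 genes in the positive direction (12.7%) and 1401 in the negative (10.7%), 54.3% positive, and 64.9% with library totals alone. The Combo libraries are the same as in the comparison with Vehicle, so these comparisons are not independent. The ATM libraries of WT also held epididymal genes, at 16872 to 17196 CPM, and a mesothelial sum of 2118 to 2212 CPM, and their part in these differences was not tested.

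Lipid-associated genes separated Combo from WT. Positive interactions were called for 16 of 17, with a median of 2.25, while of 14 resident genes 1 was positive and 3 negative. Gpnmb had 226, 217 and 238 CPM in WT ATMs and 12.3, 13.1 and 12.3 in WT BM, and the gap was wider after Combo by 3.68 ± 0.06 (adjusted p = 3.64e-26). Against Vehicle, where Gpnmb had 836, 769 and 808 CPM in ATMs, it was wider by 3.04 ± 0.06. Trem2 was at 47.6, 48.3 and 45.7 CPM in WT ATMs and 13.1, 14.1 and 13 in WT BM, a level like that of Combo BM, with an interaction of 2.28 ± 0.12. Cd36 had 1189, 1224 and 1229 CPM in WT ATMs and 43.4, 32.8 and 38.1 in WT BM, an interaction of 2.84 ± 0.08.

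Granule genes also had a smaller gap after Combo. Secondary and tertiary granule genes summed to 631 to 641 CPM there and to 9114 to 9259 after Combo, with positive interactions for 10 of 12 and a median of 5.15. Ngp had 22.8, 20.9 and 23.4 CPM in WT ATMs and 13327, 14560.5 and 14769 in WT BM, and the mature neutrophil list summed to 284 to 295 CPM in WT ATMs. T cell and NK genes were positive in all cases again, with medians of 2.72 and 2.78. Stromal genes had no positive and 6 of 13 negative interactions. Adipocyte genes had 6 of 11 negative. Acinar genes were positive in all 5 cases in both comparisons, from sums of 75.2 to 79.6 CPM in WT ATMs and 8.17 to 14.8 in Vehicle ATMs. Only 5 of 19 members were tested, and the list was chosen with earlier results of these data known. That count therefore only describes the values.

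**Figure D5:**
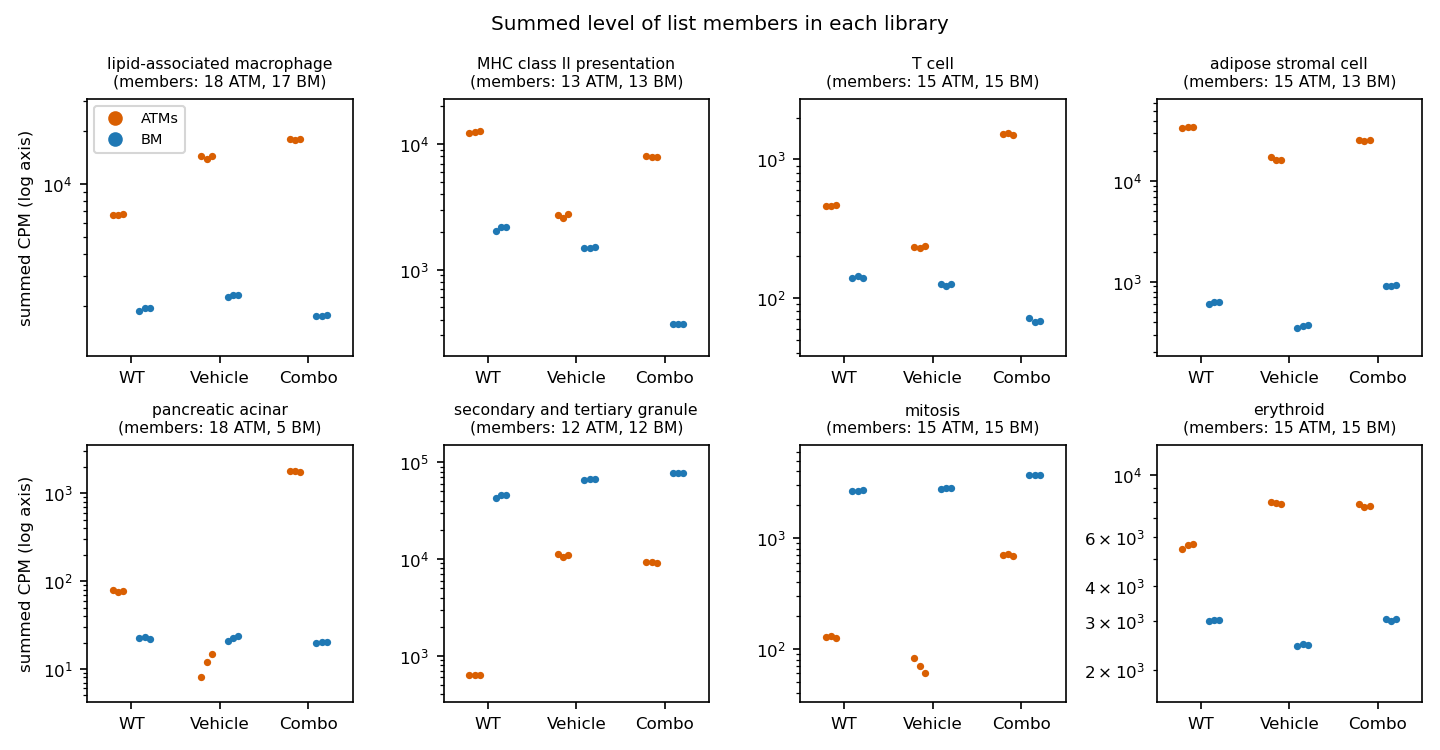
Summed CPM of list members in each library of ATMs (orange) and BM (blue) in WT, Vehicle and Combo, on log axes that differ between panels, and the number of members listed for each tissue stands in each title. T cell and acinar sums in ATMs are highest after Combo, and granule sums in WT ATMs are the lowest of the 3 groups.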

How the data were processed

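RNA of whole BM and of sorted ATMs was sequenced by the authors as paired-end polyA libraries without strand information. Reads were aligned with STAR 2.7.2a to mm10 and counted with featureCounts 2.0.1, with reads that overlap several genes counted for each, against GENCODE M22. The deposited values are whole-number counts per gene symbol, in a table for each tissue from which genes with few reads had already been left out, by a rule not given in the sources used here. The tables list 17059 genes for ATMs and 13353 for BM. Genes in 1 table, 3983 for ATMs (1.82% to 1.83% of Combo ATM counts) and 277 for BM (0.0332% to 0.0338% of Combo BM counts), have no partner and were not tested. Mitochondrial transcripts are in neither table.

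The 13076 genes in both tables were fitted together over all 30 libraries, 10 groups of tissue and treatment, with edgeR 4.0.16 (robust quasi-likelihood, TMM scaling, R 4.3.3). The filter on low counts removed 0 of them. A call needed a Benjamini-Hochberg adjusted p below 0.05 and a log2 fold change beyond 1. The difference between the tissue differences of 2 treatments was tested as an interaction. Standard errors are from the quasi-likelihood F, and 95% intervals from them. Genes without a read in a group are given as bounds against a floor of 3 counts per library, which covers counting error only. Levels were compared between genes only per kilobase of exon (GENCODE M21, the same build). Promoter windows were 250 bases of RefSeq GRCm38.p6. The members and gene lists were chosen with earlier results of these data known. Named genes were list members, the 12 most different in each direction, the 8 with the largest interaction in each direction against Vehicle and WT, the 10 with the highest level in each tissue, the 8 most variable in each tissue, and Adgre1, Ptpn11, Ptprc and Lep. Other scalings, a stricter filter, limma 3.58.1, DESeq2 1.42.0, a fit of the compared libraries alone, a replicate block and leaving out each library were tried as alternatives. The edgeR step was tested on simulated counts. The labels give 3 mice per group. Libraries of a group lay close together, with a coefficient of variation of 2.28% in Combo BM. Sex-linked genes summed to 113 to 115 CPM in the Combo BM libraries and acinar genes to 1762 to 1792 in the Combo ATM libraries. Counts of Combo BM libraries differed by a chi-square per degree of freedom of 2.04 to 3.07. Whether the libraries stand for separate animals was not tested. A few genes of the lists are not reported here by name.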

Additional observations from a re-analysis of the deposited data

Results flagged for a closer look

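The values here are tissue differences after Combo minus those of another group, on the log2 scale, for the 8 genes with the largest called interaction in each direction. They were flagged because the test of the interaction itself passed the threshold. Against Vehicle, 13 of 16 had no read in any library of 1 group, and against WT 10 of 16. Fitted values of such genes depend on the small count that the model adds and are no bound.

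Against Vehicle, the pancreatic genes Zg16 and Prss2 were at 13.24 and 12.17. Zg16 had 21.4, 26.8 and 22.7 CPM in Combo ATMs and no read in Vehicle ATMs. Spag5, a protein of the mitotic spindle, was at 12.35, with 21.9, 19.4 and 14.2 CPM in Combo ATMs, no read in Vehicle ATMs and 109, 115 and 113 CPM in Vehicle BM. Slc9a9, a sodium and proton exchanger of endosomes, was at 12.24, with 46.8, 47.7 and 47.2 CPM in Combo ATMs and no read in Vehicle ATMs. In WT ATMs it had 45.7, 48.0 and 34.1 CPM. The others were Mybpc2 at 13.24, Snai3 at 11.76, 9830147E19Rik at 10.61 and Sec16b at 10.58. Mybpc2, 9830147E19Rik and Sec16b also had reads in every WT ATM library and none in Vehicle ATMs, while Zg16 and Prss2 were under 1 CPM in WT ATMs. Vehicle ATM libraries had 426 to 470 genes at 0, Combo ATM libraries 137 to 163 and WT ATM libraries 74 to 82. The part of these zeros in the interactions was not tested. On the negative side stood Acox2 at -11.69, Myo18b at -11.18, Col22a1 at -9.75, Kcnj5 at -8.85, Fzd9 at -8.23, Rasgef1c at -8.14, Dnah6 at -7.99 and 9330182L06Rik at -7.87. Of these, Dnah6, an axonemal dynein, had reads in every group, with 0.187, 0.266 and 0.362 CPM in Vehicle BM and 9.28, 9.85 and 8.61 in Combo BM.

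Against WT, Chil4, a chitinase-like protein of macrophages, was at 11.58, with 10.5, 19.3 and 10.7 CPM in Combo ATMs and no read in WT ATMs. The pancreatic genes Prss2, Zg16 and Ctrl, a chymotrypsin-like protease, were at 9.20, 8.40 and 8.16. Ppbp, a platelet chemokine, was at 7.37, with 81.4, 73.3 and 66.5 CPM in Combo ATMs and 3.08, 2.20 and 3.54 in WT ATMs. Others were 2010109I03Rik at 10.03, Btnl6 at 9.21 and Ptgdr at 7.30. The negative values were those of Adam3 at -12.92, Slc26a3 at -12.09, Prss39 at -11.60, Rimbp3 at -11.16, Mak at -9.99, Zfp541 at -9.50, Chrm1 at -9.40 and Mfsd6l at -8.88. Adam3, which sperm use, had 10.2, 12.7 and 12.5 CPM in WT ATMs, the libraries with epididymal transcripts.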

How the results depend on the processing

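The numbers of genes called between ATMs and BM stayed within 1.5 times 3254 and 2959 under every alternative run but one, the omission of the limit on the fold change, which gave 4946 and 5192. With that limit omitted, 3771 and 3351 interactions were called against Vehicle and 3426 and 3203 against WT. A test against a log2 fold change of 1 (glmTreat) gave 1253 and 853 against Vehicle and 990 and 667 against WT. Library totals with no further scaling gave 3706 and 784 against Vehicle. Leaving out 1 library at a time gave 3186 to 3263 genes higher and 2925 to 3010 lower in ATMs, 4402 to 4492 genes with an interval inside -1 to 1, and 25 lists with a positive median each time. Of named genes 168 to 172 were called, against 173 with all libraries. The same omissions gave 2034 to 2444 positive and 1357 to 1538 negative interactions against Vehicle and 1598 to 1799 and 1223 to 1415 against WT. The filter on low counts removed no gene, so its omission changed nothing.

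Of the named genes, 11 turned sign under at least 1 alternative. Under upper-quartile scaling and library totals the log2 fold changes were 0.015 and 0.040 for Ccr2, 0.11 and 0.13 for Fcgr3, 0.025 and 0.049 for Man2b1, 0.083 and 0.11 for Npc1 and 0.0057 and 0.031 for Tyrobp. With limma, Bbs1 was at -0.58, F8 at -0.33 and Btnl6 at -0.17. Over the omissions of 1 library, Btnl6 ran from -0.083 to 1.82, Ptgdr from -5.84 to 0.15, Ccr3 from -0.20 to 0.53 and Gm1943 from -0.23 to 0.67. F8, called with all libraries, was not called without any 1 of 5 of the 6 Combo libraries. The median of the early B cell list was 0.42 with at least 10 counts in each library. Beyond those scalings the cause was not tested.

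Replicate numbers are shared by the groups, but same-numbered ATM and BM libraries did not deviate together (correlations of -0.0102 to 0.0238 over 9571 genes), so the numbers are read as names. With a replicate block, 3166 and 2988 genes were called between the tissues, 2091 and 1439 interactions against Vehicle and 1575 and 1349 against WT. Depth limits genes under about 1 CPM, where a floor of 3 counts bounds what can be stated.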
